A study of Homo sapiens with 21 samples.

Results

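The genes described here are 10 targets of the transcription factor p53 that act in cell death, survival or stress control outside the BCL2 family. They are AEN, ZMAT3, PHLDA3, PERP, EDA2R, TP53INP1, SPATA18, TRIAP1, KIAA0247 (now named SUSD6) and CYFIP2. They were chosen by name, and all 10 were found among the 23368 genes listed and were among the 19694 genes tested. RNA was measured by sequencing in hTERT-HPNE cells, a nontransformed pancreatic line made immortal with telomerase. Untreated cells formed the shared control, and treated cells had received either 300 µM hydrogen peroxide (H2O2), an oxidant, or 400 ng/ml neocarzinostatin (NCS), a drug that breaks both DNA strands. Treated cells were collected 4, 8 or 24 h later, which gave 7 groups of 3 biological replicates, each replicate a library, and 21 libraries in all. All groups were the same line, kept in medium with serum, EGF, puromycin, amphotericin B, penicillin and streptomycin. The methods name no other treatment of these cells. Values are rLog values, which are log2 read counts scaled for library size and with differences shrunk, most strongly where reads are few. Counts were not used here, so the depth of the libraries is unknown.

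p53 is kept low in resting cells and accumulates when DNA is damaged or cells are stressed. It then binds response elements near its target genes and raises their transcription. Its best known death targets act on the mitochondrial membrane, but many others act elsewhere. AEN is a nuclease that digests DNA and RNA. ZMAT3 is a zinc finger protein that binds RNA. PHLDA3 carries a pleckstrin homology domain and holds back the survival kinase AKT. TP53INP1 is a stress protein with roles in p53 activity and autophagy. SPATA18, also called Mieap, acts in the quality control of mitochondria, and TRIAP1 is a small survival protein that helps carry lipids between the mitochondrial membranes. EDA2R is a receptor of the TNF receptor family for the ectodysplasin EDA-A2, PERP is a membrane protein of desmosomes, and KIAA0247 encodes a membrane protein with a sushi domain. CYFIP2 is a subunit of the WAVE complex, which drives actin branching.

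Promoter sequence from RefSeq (GRCh38.p14) was available for 8 of the 10 genes, with 11 start sites. PHLDA3 and TP53INP1 had no entry. In the 250 bases before each start, both strands were searched for the 10-base p53 decamer, the motif TATAAA, the motif CCAAT, the motif GGGCGG and the AP-1 motif TGANTCA, and overlapping matches were all counted. A p53 decamer was present before 1 of the 11 starts, that of AEN, and in 5.57% of all 35116 promoter windows. Single decamers were counted, and the paired decamers of a full p53 response element were not searched for. The AEN match is shown with its neighbouring bases because the gene rose early in both treatments. ZMAT3 is shown because it first fell in H2O2, KIAA0247 because it peaked at 8 h in H2O2 and SPATA18 because it rose slowly. Capitals mark motif matches, and every sequence reads 5′ to 3′ on the strand of the gene.
AEN, chr15:88621296-88621325, plus strand: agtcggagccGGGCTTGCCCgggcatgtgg
ZMAT3, chr3:179069343-179069592, minus strand: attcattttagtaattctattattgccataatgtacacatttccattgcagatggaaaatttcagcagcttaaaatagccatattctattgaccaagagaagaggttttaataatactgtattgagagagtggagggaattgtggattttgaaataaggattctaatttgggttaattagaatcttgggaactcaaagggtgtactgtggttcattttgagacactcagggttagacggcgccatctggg
KIAA0247, chr14:69611346-69611595, plus strand: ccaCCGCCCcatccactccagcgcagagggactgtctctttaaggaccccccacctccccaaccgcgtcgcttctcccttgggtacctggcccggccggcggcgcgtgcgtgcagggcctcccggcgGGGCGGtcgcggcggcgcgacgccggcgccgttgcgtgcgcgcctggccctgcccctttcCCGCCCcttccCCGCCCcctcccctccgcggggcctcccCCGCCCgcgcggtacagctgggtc
SPATA18, chr4:52051054-52051303, plus strand: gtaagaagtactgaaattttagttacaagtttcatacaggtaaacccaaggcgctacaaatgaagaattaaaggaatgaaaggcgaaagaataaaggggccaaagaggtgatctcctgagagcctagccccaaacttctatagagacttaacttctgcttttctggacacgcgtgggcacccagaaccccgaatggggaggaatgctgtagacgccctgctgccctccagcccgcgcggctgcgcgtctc

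The capitals in AEN are a single p53 decamer, which lay 34 to 25 bases before the start and overlapped an AEN exon of GENCODE v29. The KIAA0247 window had a GC content of 78% and 5 matches to GGGCGG, a motif present in 42.6% of all windows. The ZMAT3 window, before the first of 2 listed starts, had a GC content of 36%, and the SPATA18 window had 50%. Neither of these held any of the motifs searched, and no exon of GENCODE v29 lay in the 3 windows printed in full. The window before the second ZMAT3 start, which overlaps a ZMAT3 exon and is not printed, was unlike the first. Its GC content was 75.2%, and it held 1 match to CCAAT, a motif present in 32.0% of all windows, and 1 to GGGCGG. Which of the 2 starts these cells used was not tested. These letters are a description of the windows, and no binding was measured.

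The label of the cells was checked against markers. Over the 21 libraries the rLog value of VIM lay between 16.8 and 17.2, that of NES between 11.8 and 12.3, that of KRT18 between 11.4 and 11.9 and that of SOX9 between 5.78 and 6.48. The keratin genes KRT7 and KRT8 lay at 6.61 to 7.17 and at 7.73 to 8.28. Another keratin gene of the list, KRT19, was near the bottom of the scale, at 0.575 to 0.727. Of the markers of other pancreatic cells and other cell types, PRSS1, INS and CD3E were listed at 0 in every library. CPA1 (-2.18 to -2.17), GCG (-1.90 to -1.89) and EPCAM (-1.77 to -1.74) had negative values. PECAM1 (2.02 to 2.42), ALB (1.08 to 1.37) and PTPRC (0.891 to 0.983) lay above KRT19. TERT lay at 13.9 to 14.4. A single library stood apart. Replicate 2 of H2O2 at 8 h lay 13.8 from the mean of the other replicates of its group, as a Euclidean distance over all tested genes, against 7.84 to 11.2 in the other 20 libraries. It was the lowest of its group for 10 of the 10 genes, by a median of 0.21 on the log2 scale. Results at 8 h in H2O2 that change without it are therefore also given without it.

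Against untreated cells, nearly all of the genes rose in both treatments. In H2O2, 8 of the 10 rose and 1 fell at 4 h, 9 rose at 8 h and 10 rose at 24 h, by limma with Benjamini-Hochberg (BH) adjusted p-values under 0.05. Over all tested genes, 26.2%, 18.8% and 20.2% rose and 19.7%, 18.6% and 19.9% fell at these times. In NCS, 9 rose at 4 h, 9 at 8 h and 10 at 24 h, and 0 fell, against 7.47%, 10.5% and 19.6% of all genes that rose and 9.72%, 13.3% and 18.4% that fell. The gene that fell was ZMAT3, in H2O2 at 4 h. PERP was the gene that did not pass at 4 h and 8 h in either treatment. The median log2 difference of the 10 genes was 0.40, 0.62 and 0.76 at 4, 8 and 24 h in H2O2 and 0.55, 0.74 and 0.70 in NCS. The median over all tested genes lay between -0.00034 and 0.0038 in these 6 comparisons. RNA was taken from whole cultures, so fewer responding cells and less RNA per cell cannot be told apart.

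**Figure D1:**
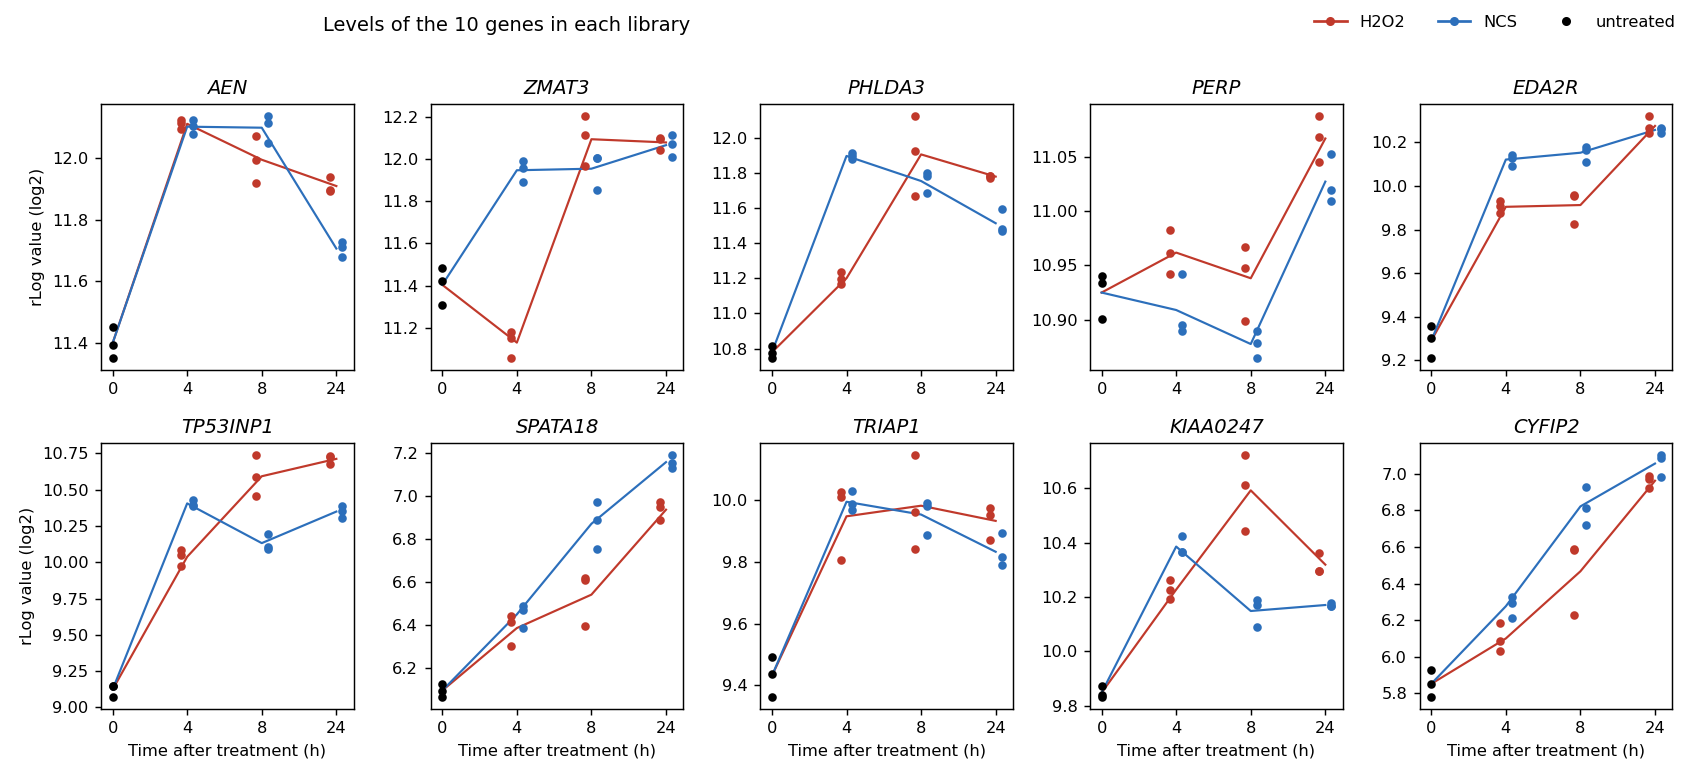
rLog values (log2, y axis) of each gene against time (0, 4, 8 and 24 h, evenly spaced). Points are libraries (black untreated, red H2O2, blue NCS), and lines join the means of 3 libraries, starting from the shared untreated cells. ZMAT3 dipped in H2O2 at 4 h, from a mean of 11.40 to 11.13, while PERP stayed between 10.86 and 11.09 in all libraries.

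A log2 difference over 1 was passed by 2 of the 10 genes in H2O2 at 8 h (PHLDA3 and TP53INP1) and by 2 at 24 h (TP53INP1 and CYFIP2), and by 0 at 4 h, where 8 had risen by the adjusted p-value alone. In all tested genes the shares past this limit in H2O2 at 4, 8 and 24 h were 0.655%, 0.32% and 0.325%, respectively. In NCS the limit was passed by PHLDA3 and TP53INP1 at 4 h, by TP53INP1 at 8 h, and by TP53INP1, SPATA18 and CYFIP2 at 24 h, against 0.0914%, 0.066% and 0.127% of all genes. TP53INP1 passed it in 5 of the 6 treated groups. The replicates did not overlap with those of untreated cells for 10, 9 and 10 of the 10 genes in H2O2 and for 9, 10 and 10 in NCS. Over all genes this held for 49.5%, 42% and 59.7% in H2O2 and for 30%, 33.8% and 44.5% in NCS.

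**Figure D2:**
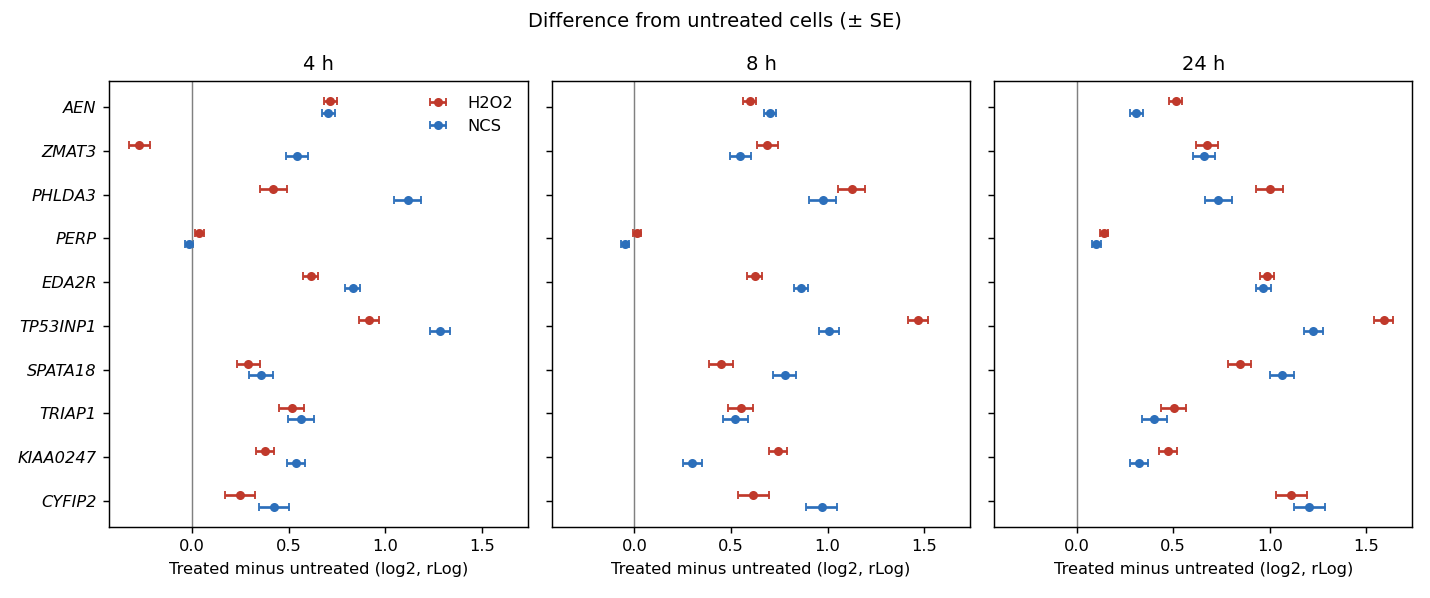
Log2 difference from untreated cells (x axis) for each gene at 4, 8 and 24 h, with H2O2 in red and NCS in blue and bars of 1 SE from the fit of all 21 libraries. The largest value was that of TP53INP1 in H2O2 at 24 h, 1.59, and the lowest that of ZMAT3 in H2O2 at 4 h, -0.27.

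ZMAT3, the RNA-binding protein, changed in opposite directions in the 2 treatments at 4 h. Its rLog values were 11.48, 11.42 and 11.31 in untreated cells, 11.15, 11.06 and 11.18 in H2O2 at 4 h and 11.89, 11.96 and 11.99 in NCS at 4 h. All 3 H2O2 libraries lay below the untreated range and all 3 NCS libraries above it. The log2 difference from untreated cells was -0.27 in H2O2 (SE 0.06, limma, BH-adjusted p = 5.73e-04) and 0.54 in NCS (BH-adjusted p = 1.3e-06). By 8 h the H2O2 libraries had risen to 12.20, 11.97 and 12.11, and at 24 h they were at 12.09, 12.10 and 12.04. The NCS libraries lay between 11.85 and 12.01 at 8 h, and at the last time they were 12.11, 12.07 and 12.01. The step from 4 h to 8 h was 0.96 in H2O2 (SE 0.06, limma, BH-adjusted p = 3.05e-10), the largest time step of any of the 10 genes, and 0.01 in NCS (BH-adjusted p = 0.987). From 8 h on, the 2 treatments overlapped. H2O2 minus NCS was -0.82 at 4 h, 0.14 at 8 h (limma, BH-adjusted p = 0.0652) and 0.01 at 24 h (BH-adjusted p = 0.936). Without replicate 2 of H2O2 at 8 h the 8 h difference was 0.20 (BH-adjusted p = 0.00663).

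AEN, the nuclease, rose early and then declined. In untreated cells its rLog values were 11.35, 11.39 and 11.45. At 4 h they were 12.10, 12.12 and 12.12 in H2O2 and 12.12, 12.08 and 12.11 in NCS. The treatments overlapped, and their difference was 0.01 (limma, BH-adjusted p = 0.881). Each lay above untreated cells by 0.71 (SE 0.03, limma, BH-adjusted p = 7.69e-12 in H2O2 and 4.57e-11 in NCS). At 24 h the H2O2 libraries had values of 11.94, 11.90 and 11.89 and the NCS libraries values of 11.68, 11.71 and 11.73, without overlap. The fall in NCS took place between 8 h and 24 h (-0.39, SE 0.03, limma, BH-adjusted p = 3.08e-08). AEN was the gene with the largest fall between these times in NCS. At 24 h H2O2 stood 0.51 and NCS 0.31 above untreated cells on the log2 scale, and the treatments differed by 0.20 (limma, BH-adjusted p = 1.68e-04). At 8 h H2O2 was lower by a log2 difference of -0.10 (BH-adjusted p = 0.0201), with overlapping libraries. This call was lost without replicate 2 of H2O2 at 8 h (-0.07, BH-adjusted p = 0.119) and without any of 3 other libraries (replicate 1 of H2O2, replicates 2 and 3 of NCS, BH-adjusted p from 0.0513 to 0.0938). In H2O2 the steps of -0.12 from 4 h to 8 h and of -0.09 from 8 h to 24 h passed (limma, BH-adjusted p = 0.00739 and 0.0453). The first was lost without replicate 2 at 8 h (-0.08, BH-adjusted p = 0.0505) and the second without any of 4 libraries (replicates 1 and 3 at 8 h, replicates 2 and 3 at 24 h, the value nearest to 0 being -0.05 with a BH-adjusted p of 0.283). The second step was -0.02 after quantile normalization (BH-adjusted p = 0.653) and did not pass without the variance trend (BH-adjusted p = 0.0532), and in a model of the compared groups alone neither step passed (BH-adjusted p = 0.0731 and 0.169).

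PHLDA3, the AKT inhibitor, reached its high level later in H2O2 than in NCS. Untreated cells had rLog values of 10.77, 10.75 and 10.81. In H2O2 the values were 11.16, 11.20 and 11.24 at 4 h, then 11.92, 11.67 and 12.12 at 8 h, and finally 11.78, 11.77 and 11.78 at 24 h. In NCS they were 11.91, 11.90 and 11.88 at 4 h, then 11.68, 11.78 and 11.80 at 8 h, and finally 11.48, 11.47 and 11.59 at 24 h. NCS was thus highest at the first time sampled and H2O2 at the second. The 3 H2O2 libraries at 4 h lay below every NCS library of any time. At 4 h the log2 rise over untreated cells came to 0.42 in H2O2 (SE 0.07, limma, BH-adjusted p = 7.08e-05) and 1.12 in NCS (BH-adjusted p = 2.25e-09), and H2O2 minus NCS was -0.70 (BH-adjusted p = 2.09e-07). At 8 h H2O2 had reached 1.13 above untreated cells. The difference between the treatments was then 0.15 (limma, BH-adjusted p = 0.111), and without replicate 2 of H2O2 it was 0.27 (BH-adjusted p = 2.31e-04). At 24 h H2O2 was higher by 0.27 (limma, BH-adjusted p = 0.00987) with no overlap. Between 8 h and 24 h PHLDA3 changed by -0.24 in NCS (BH-adjusted p = 0.0132), a call lost without replicate 3 at 8 h or replicate 1 or 2 at 24 h (BH-adjusted p from 0.0517 to 0.0548). In H2O2 the same step was -0.13 (BH-adjusted p = 0.17), and -0.24 without replicate 2 (BH-adjusted p = 4.23e-04).

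TP53INP1, the stress and autophagy protein, had the largest rise of the 10 genes. Its rLog values were 9.15, 9.15 and 9.07 in untreated cells. In H2O2 they were 10.05, 9.98 and 10.09 at 4 h, then 10.74, 10.46 and 10.59 at 8 h, and finally 10.73, 10.68 and 10.73 at 24 h. In NCS they were 10.39, 10.43 and 10.40 at 4 h, then 10.20, 10.11 and 10.09 at 8 h, and finally 10.35, 10.39 and 10.30 at 24 h. The order of the treatments turned between 4 h and 8 h, with no overlap at any of the 3 times. H2O2 minus NCS was -0.37 at 4 h (SE 0.05, limma, BH-adjusted p = 9.27e-06), 0.46 at 8 h (BH-adjusted p = 1.29e-06) and 0.36 at 24 h (BH-adjusted p = 3.18e-05). At 24 h the difference from untreated cells was 1.59 in H2O2 (SE 0.05, limma, BH-adjusted p = 1.86e-14), or 3.01-fold on the rLog scale, and 1.23 in NCS (BH-adjusted p = 5.21e-13), or 2.34-fold. In NCS the gene dipped at 8 h, by -0.27 from 4 h (BH-adjusted p = 0.00101) and with 0.22 regained by 24 h (BH-adjusted p = 0.00261).

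SPATA18, the mitochondrial quality control protein, rose step by step and further in NCS. In untreated cells its rLog values were 6.09, 6.12 and 6.06. H2O2 gave 6.44, 6.41 and 6.30 at 4 h, then 6.62, 6.40 and 6.61 at 8 h, and finally 6.89, 6.95 and 6.97 at 24 h. NCS gave 6.49, 6.38 and 6.47 at 4 h, then 6.75, 6.97 and 6.89 at 8 h, and finally 7.13, 7.15 and 7.19 at 24 h. The treatments overlapped at 4 h and lay apart at 8 h and 24 h. The difference from untreated cells reached 0.84 in H2O2 (SE 0.06, limma, BH-adjusted p = 1.69e-09) and 1.07 in NCS (BH-adjusted p = 6.51e-11) at 24 h. H2O2 minus NCS was -0.06 at 4 h (limma, BH-adjusted p = 0.44), -0.33 at 8 h (BH-adjusted p = 3.37e-04) and -0.22 at 24 h (BH-adjusted p = 0.0137). Without replicate 2 of H2O2 the 8 h difference was -0.26 (BH-adjusted p = 0.00181). The 24 h call was lost without replicate 1 of H2O2 (-0.20, BH-adjusted p = 0.0611) or replicate 3 of NCS (-0.21, BH-adjusted p = 0.0513). Both steps in NCS passed, 0.42 from 4 h to 8 h and 0.29 from 8 h to 24 h (limma, BH-adjusted p = 1.06e-04 and 0.00128). In H2O2 the second step was 0.40 (BH-adjusted p = 3.37e-05), and the first, 0.16 (BH-adjusted p = 0.0468), was lost without replicate 2 or 3 at 4 h or replicate 1 or 3 at 8 h (BH-adjusted p from 0.0634 to 0.191). Without replicate 2 at 8 h it was 0.23 (BH-adjusted p = 0.00372).

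TRIAP1, the other mitochondrial protein, was above untreated cells at every time sampled. The 18 treated libraries lay between 9.79 and 10.14 and the 3 untreated ones between 9.36 and 9.49, without overlap. Its log2 difference from untreated cells was 0.52, 0.55 and 0.50 at 4, 8 and 24 h in H2O2 and 0.56, 0.52 and 0.40 in NCS, with an SE of 0.07 and adjusted p-values from 1.92e-06 to 5.54e-05 (limma). H2O2 minus NCS was -0.05, 0.03 and 0.10 at the 3 times (BH-adjusted p = 0.608, 0.831 and 0.345). None of its 4 time steps, of which the largest was -0.12 from 8 h to 24 h in NCS (BH-adjusted p = 0.198), and neither interaction passed in limma. A p-value that misses the threshold does not show equal levels.

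EDA2R, the ectodysplasin receptor, rose more slowly in H2O2 and overlapped between the treatments at 24 h. Untreated cells had rLog values of 9.36, 9.30 and 9.21. In H2O2 the values were 9.87, 9.91 and 9.93 at 4 h, then 9.95, 9.82 and 9.96 at 8 h, and finally 10.24, 10.26 and 10.32 at 24 h. In NCS they were 10.09, 10.14 and 10.13 at 4 h, then 10.11, 10.18 and 10.17 at 8 h, and finally 10.27, 10.26 and 10.24 at 24 h. H2O2 lay below NCS without overlap at 4 h and 8 h, and the treatments overlapped at 24 h. The difference between them was -0.22 at 4 h (SE 0.04, limma, BH-adjusted p = 1.19e-04), -0.24 at 8 h (BH-adjusted p = 6.21e-05) and 0.02 at 24 h (BH-adjusted p = 0.86). At 24 h EDA2R was 0.99 above untreated cells in H2O2 and 0.97 above them in NCS (limma, BH-adjusted p = 1.87e-13 and 2.31e-13). The late step in H2O2, from 8 h to 24 h, was 0.36 (BH-adjusted p = 2.81e-07). The same step in NCS was 0.10 (BH-adjusted p = 0.0438) and was lost without any of its 6 libraries (BH-adjusted p from 0.0533 to 0.168). The ligand gene EDA and the related receptor EDAR had no difference from untreated cells that passed in limma. EDA stayed between 0.96 and 1.04 and EDAR between -1.63 and -1.60, both near the bottom of the scale.

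PERP, the desmosome protein, moved least. Its rLog values lay between 10.90 and 10.94 in untreated cells, between 10.90 and 10.98 in H2O2 at 4 h and 8 h, and between 10.86 and 10.94 in NCS at 4 h and 8 h. At 24 h they were 11.05, 11.07 and 11.09 in H2O2 and 11.02, 11.05 and 11.01 in NCS. All 6 libraries at 24 h lay above the other 15. The difference from untreated cells was 0.14 in H2O2 (SE 0.02, limma, BH-adjusted p = 2.93e-05) and 0.10 in NCS (BH-adjusted p = 9.05e-04) at 24 h. Before that it was at most 0.04 and at least -0.05. After quantile normalization, the 0.07 in H2O2 at 4 h passed as well (BH-adjusted p = 0.0175). H2O2 minus NCS passed at 8 h, at 0.06 (BH-adjusted p = 0.0397), and this call was lost without any of 5 of the 6 libraries (BH-adjusted p from 0.0554 to 0.174). Without the sixth, replicate 2 of H2O2, it was 0.08 (BH-adjusted p = 0.00803). After quantile normalization the 8 h difference was 0.04 (BH-adjusted p = 0.231). A difference of 0.06 then passed at 4 h and at 24 h instead (BH-adjusted p = 0.0228 and 0.0456). The 8 h call was also lost among genes with means of 5 or more (BH-adjusted p = 0.0561) and in a model of the compared groups alone (BH-adjusted p = 0.150).

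KIAA0247, the sushi-domain membrane protein, peaked at 8 h in H2O2 and at 4 h in NCS. Its rLog values were 9.87, 9.83 and 9.84 in untreated cells. In H2O2 they were 10.19, 10.26 and 10.23 at 4 h, then 10.61, 10.44 and 10.72 at 8 h, and finally 10.30, 10.30 and 10.36 at 24 h. In NCS they were 10.37, 10.42 and 10.37 at 4 h, then 10.09, 10.17 and 10.19 at 8 h, and finally 10.18, 10.17 and 10.17 at 24 h. The 3 H2O2 libraries at 8 h were the highest of all 21, replicate 2 included. The difference from untreated cells there was 0.74 (SE 0.05, limma, BH-adjusted p = 1.11e-09), after 0.38 at 4 h and before 0.47 at 24 h. The rise of 0.36 from 4 h to 8 h and the fall of -0.27 from 8 h to 24 h both passed (limma, BH-adjusted p = 4.54e-06 and 1.01e-04). In NCS the difference from untreated cells was 0.54 at 4 h and the step to 8 h was -0.24 (limma, BH-adjusted p = 0.00184). H2O2 minus NCS was -0.16 at 4 h (BH-adjusted p = 0.0105), 0.44 at 8 h (BH-adjusted p = 8.89e-07) and 0.15 at 24 h (BH-adjusted p = 0.0299). The 24 h call was lost without any 1 of its 6 libraries (BH-adjusted p from 0.0506 to 0.119), although the groups did not overlap.

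CYFIP2, the WAVE complex subunit, rose over the whole course in both treatments. Untreated cells had rLog values of 5.92, 5.85 and 5.78. In H2O2 the values were 6.18, 6.03 and 6.09 at 4 h, then 6.59, 6.23 and 6.58 at 8 h, and finally 6.92, 6.99 and 6.97 at 24 h. In NCS they were 6.21, 6.32 and 6.29 at 4 h, then 6.82, 6.72 and 6.93 at 8 h, and finally 6.98, 7.10 and 7.09 at 24 h. Each later time was higher than the one before in both treatments, and the treatments lay apart at 4 h and 8 h but overlapped at 24 h. The difference from untreated cells was 0.25 in H2O2 (SE 0.08, limma, BH-adjusted p = 0.0159) and 0.42 in NCS (BH-adjusted p = 8.04e-04) at 4 h. The H2O2 call at 4 h was lost without replicate 3 of untreated cells (0.21, BH-adjusted p = 0.0666), without replicate 1 of H2O2 (0.21, BH-adjusted p = 0.0715) and after quantile normalization (0.16, BH-adjusted p = 0.127). At 24 h it was 1.11 in H2O2 (BH-adjusted p = 1.31e-09) and 1.21 in NCS (BH-adjusted p = 4.58e-10). H2O2 minus NCS was -0.18 at 4 h (limma, BH-adjusted p = 0.084), -0.36 at 8 h (BH-adjusted p = 0.00174) and -0.09 at 24 h (BH-adjusted p = 0.5). Without replicate 2 of H2O2 the 8 h value was -0.24 (BH-adjusted p = 0.00698). In a model of the compared groups alone the 8 h difference of -0.36 did not pass (BH-adjusted p = 0.0673). In NCS the last step, 0.23 (BH-adjusted p = 0.0322), was lost without replicate 1 or 2 at 8 h or replicate 2 or 3 at 24 h (BH-adjusted p from 0.0751 to 0.149). In GENCODE v29 exons of CYFIP2 overlap exons of ADAM19 on the opposite strand, and the strand setting of the counting is not given in the sources used here. At 4, 8 and 24 h ADAM19 differed from untreated cells by 0.02, -0.10 and -0.26 in H2O2 and by 0.41, 0.26 and -0.09 in NCS, beside 0.25, 0.62 and 1.11 and then 0.42, 0.97 and 1.21 for CYFIP2. H2O2 minus NCS at 8 h was -0.36 for both genes. The values were thus close in NCS at 4 h and in the difference between treatments at 8 h, and of opposite sign at 24 h, and the part of shared reads was not tested. Exons of PHLDA3 likewise overlap a non-coding RNA on the same strand.

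Set side by side at the same times, the direction of the difference between the treatments depended on the gene and on time. At 4 h, 5 of the 10 genes were lower in H2O2 than in NCS (ZMAT3, PHLDA3, TP53INP1, EDA2R and KIAA0247) and 0 were higher in limma after BH adjustment. At an unadjusted p under 0.05 there was 1 higher gene, PERP, and CYFIP2 was then also lower (-0.18, limma, unadjusted p = 0.0404). Of all tested genes, 18% were lower and 26.3% higher after BH adjustment. At 8 h, 4 were lower (AEN, EDA2R, SPATA18 and CYFIP2) and 3 higher (PERP, TP53INP1 and KIAA0247), against 15.4% and 18.7% of all genes. Without replicate 2 of H2O2 at 8 h, 3 were lower and 5 higher, since AEN no longer passed and ZMAT3 and PHLDA3 were then higher. At 24 h, 1 was lower (SPATA18) and 4 were higher (AEN, PHLDA3, TP53INP1 and KIAA0247), against 10.9% and 11% of all genes. The groups did not overlap for 6, 6 and 5 of the 10 genes, against 50.1%, 40.8% and 36.5% of all genes. The number of genes that differed at 24 h was thus 5 of 10, against 21.9% of all genes in either direction. It was 3 without replicate 1 of H2O2 or replicate 3 of NCS at 24 h, and neither SPATA18 nor KIAA0247 then passed. The median of H2O2 minus NCS over the 10 genes at the 3 times was -0.17, 0.04 and 0.07 in turn.

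**Figure D3:**
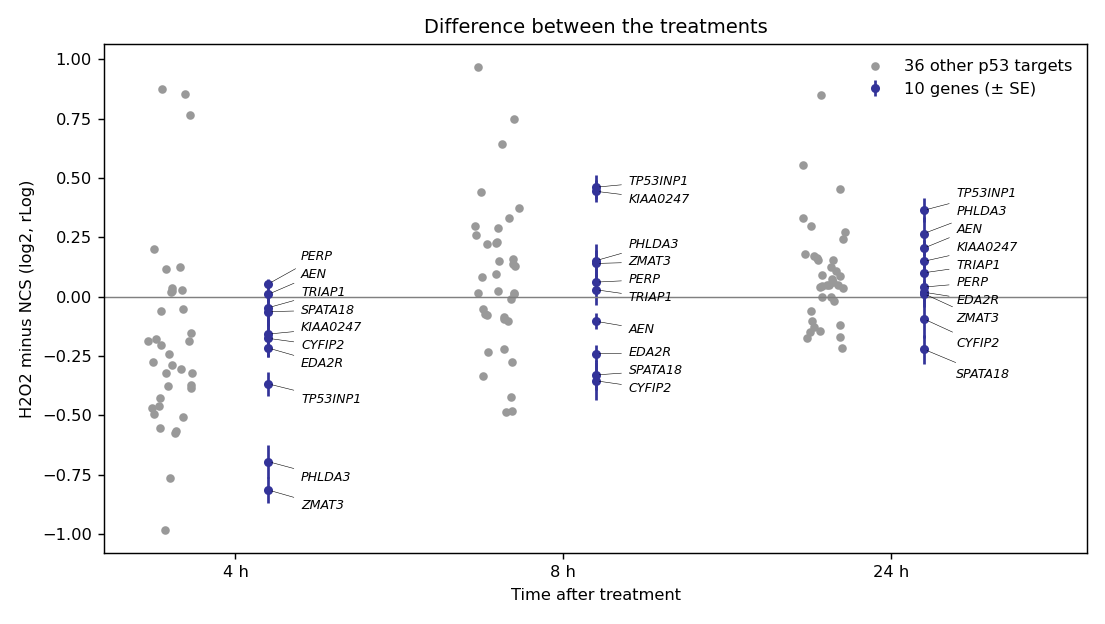
H2O2 minus NCS (log2, y axis) at 4, 8 and 24 h. Blue points with bars of 1 SE are the 10 genes and grey points are 36 other p53 targets. At 4 h ZMAT3 (-0.82) and PHLDA3 (-0.70) lay lowest among the 10 genes, and at 8 h TP53INP1 (0.46) and KIAA0247 (0.44) lay highest.

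The change of the treatment difference with time was tested itself. From 4 h to 8 h it rose for 4 of the 10 genes and fell for 1 in limma, while 14.7% of all genes rose and 18% fell. The 4 were ZMAT3 (0.95), PHLDA3 (0.85), TP53INP1 (0.83) and KIAA0247 (0.60), and the 1 was SPATA18 (-0.27, BH-adjusted p = 0.0247). The SPATA18 call was lost without replicate 2 of H2O2 at 8 h (-0.19, BH-adjusted p = 0.0645), without any of 4 other libraries (replicates 1 and 2 of H2O2 at 4 h, replicate 2 of NCS at 4 h and at 8 h, BH-adjusted p from 0.0516 to 0.0744) and after quantile normalization (-0.17). From 4 h to 24 h the change passed as positive for 6 of the 10 genes and as negative for 0, against 16.6% and 22.7% of all genes. SPATA18 (-0.16) and PERP (-0.01) had negative values that did not pass. At an unadjusted p under 0.05 the count of negative changes was also 0. The 6 were PHLDA3 (0.96), ZMAT3 (0.83), TP53INP1 (0.73), KIAA0247 (0.31), EDA2R (0.24) and AEN (0.19).

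The steps between neighbouring times were tested within each treatment. In H2O2, 6 genes rose and 1 fell from 4 h to 8 h, against 18% and 27.7% of all genes, and 4 rose and 2 fell from 8 h to 24 h, against 19.4% and 23.2%. In NCS, 2 rose (SPATA18 and CYFIP2) and 2 fell (TP53INP1 and KIAA0247) from 4 h to 8 h, against 6.16% and 7.5% of all genes. From 8 h to 24 h in NCS, 5 rose and 2 fell, against 14.9% and 15%. These 7 calls became 4 without replicate 2 of NCS at 24 h and 5 without any other of the 6 libraries. PERP, EDA2R, SPATA18 and CYFIP2 rose and AEN fell over this step in both treatments. SPATA18 and CYFIP2 were the genes that rose at all 4 steps in the fit of all libraries. Some of these calls were lost without certain single libraries, as given above. Over the last step they were the AEN fall in H2O2 and the EDA2R and CYFIP2 rises in NCS. The SPATA18 rise from 4 h to 8 h in H2O2 was another. It also did not pass in a model of the compared groups alone (limma, BH-adjusted p = 0.180).

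Over the 21 libraries, which share their 7 groups, SPATA18 and CYFIP2 had the highest Pearson correlation of any pair of the 10 genes, at 0.969. AEN and TRIAP1 came next, at 0.897, and PHLDA3 and TP53INP1 after them, at 0.881. AEN and PERP had the lowest, at -0.188. Among 11681 genes with a mean rLog value of at least 5, those most like each gene included several other p53 targets. BBC3 and CDC42SE1 were nearest to AEN (Pearson r 0.950 and 0.944), ACER2 to PHLDA3 (0.972), GDF15 and CDKN1A to TP53INP1 (0.972 and 0.950), and BTG2 and BLOC1S2 to TRIAP1 (0.942 and 0.938). SIPA1L2 and ZNF702P were nearest to ZMAT3 (0.969 and 0.965), PHPT1 and RGAG4 to EDA2R (0.944 and 0.940), and REEP5 and TIMP1 to PERP (0.960 and 0.952). TSKU and RNF19B were nearest to KIAA0247 (0.982 and 0.952), APOBEC3C and C7orf10 to SPATA18 (0.965 and 0.961), and MCC and CMBL to CYFIP2 (0.977 and 0.966). With so few groups these are descriptions of the time courses, and by Spearman correlation 5 of these 20 nearest genes were named again.

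A list of 36 other p53 targets gave the setting. In H2O2, 27 of them rose at 4 h and 0 fell, 33 rose and 1 fell at 8 h, and 33 rose and 3 fell at 24 h (limma). In NCS, 33, 32 and 31 rose and 1, 1 and 3 fell. Of all tested genes, 26.2%, 18.8% and 20.2% rose and 19.7%, 18.6% and 19.9% fell in H2O2 at these times. The shares in NCS were 7.47%, 10.5% and 19.6% that rose and 9.72%, 13.3% and 18.4% that fell. At 4 h, 25 of the 36 were lower in H2O2 than in NCS and 4 were higher, against 18% and 26.3% of all genes. Their median was -0.26, beside -0.17 for the 10 genes. The 3 with the largest difference at 4 h were FDXR, a mitochondrial reductase (-0.98), GADD45A, a stress and repair protein (0.87), and PMAIP1, which encodes the BH3-only protein NOXA (0.85). At 8 h, 13 were higher and 7 lower, with a median of 0.05, and at 24 h, 11 were higher and 6 lower, with a median of 0.05. From 8 h to 24 h 9 of the 36 rose and 17 fell in H2O2, and 5 rose and 18 fell in NCS, while the 10 genes had 4 and 2 in H2O2 and 5 and 2 in NCS. Of all genes, 19.4% rose and 23.2% fell over this step in H2O2, and 14.9% rose and 15% fell in NCS. Whether the 10 genes differ from the 36 was not tested.

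Relatives and partners of the 10 genes, 36 in all, included genes that rose and genes that fell. In H2O2, 8 rose and 8 fell at 4 h, then 10 rose and 9 fell at 8 h, and 9 rose and 9 fell at 24 h. In NCS, 3 rose and 7 fell at 4 h, then 4 rose and 8 fell at 8 h, and 12 rose and 6 fell at 24 h (limma). The shares of all tested genes at the same times were 26.2%, 18.8% and 20.2% higher and 19.7%, 18.6% and 19.9% lower in H2O2, and 7.47%, 10.5% and 19.6% higher and 9.72%, 13.3% and 18.4% lower in NCS. CYFIP1, the close relative of CYFIP2, had rLog values of 12.12, 12.12 and 12.13 in untreated cells and of 11.99, 11.99 and 12.02 in H2O2 at 24 h. It fell by 0.12 there (SE 0.02, limma, BH-adjusted p = 5.37e-05), while CYFIP2 rose by 1.11. TP53INP2, an autophagy protein related to TP53INP1, was below untreated cells in H2O2 and above them in NCS at 8 h and 24 h. At 4 h the order was the other way, with means of 11.64 in H2O2, 11.60 in untreated cells and 11.55 in NCS. Its values were 11.59, 11.61 and 11.59 in untreated cells, 11.24, 11.20 and 11.22 in H2O2 at 24 h and 11.95, 11.96 and 11.97 in NCS at 24 h, with no overlap. The differences from untreated cells were -0.38 and 0.36 (SE 0.02, limma, BH-adjusted p = 3.69e-11 and 7.03e-11).

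**Figure D4:**
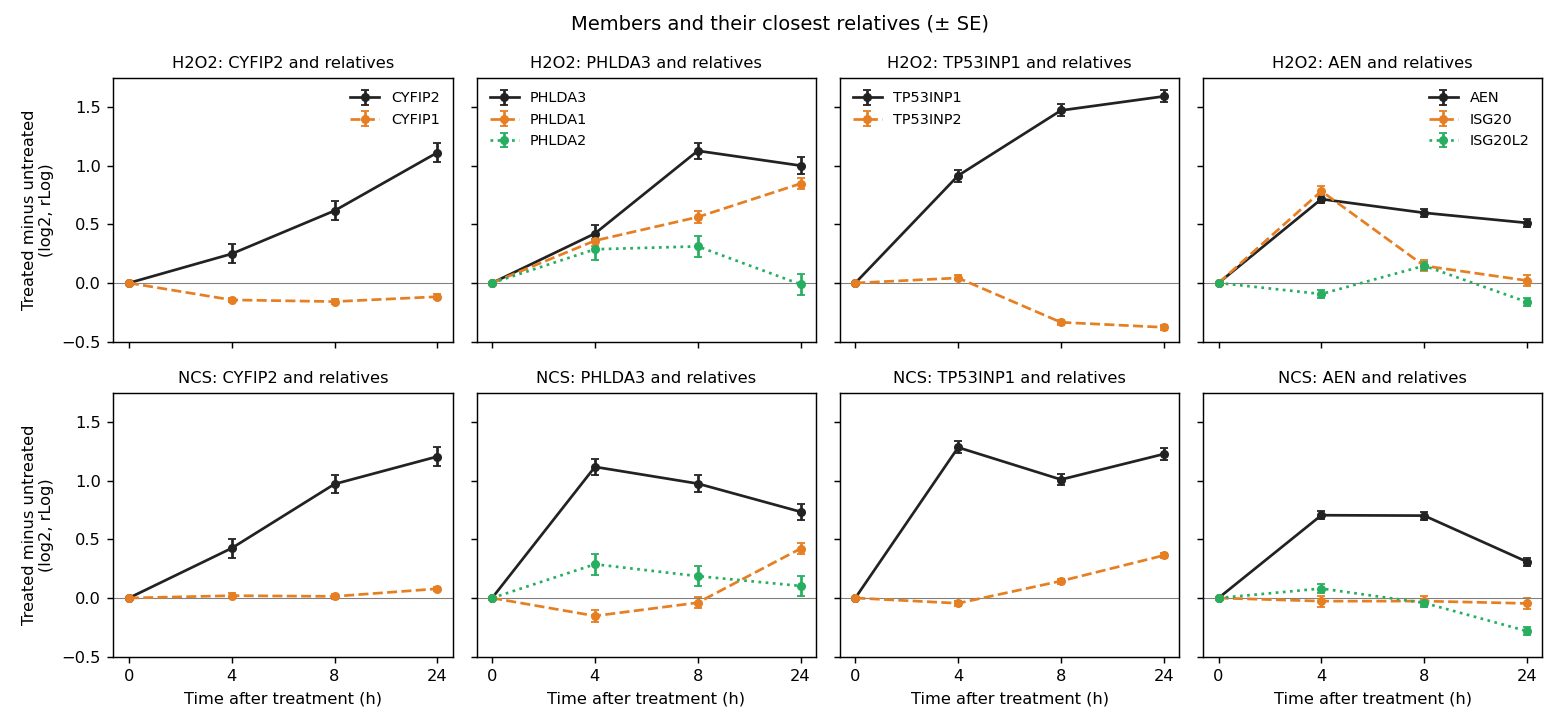
Log2 difference from untreated cells (y axis, bars of 1 SE) against time (h) for 4 of the genes and their relatives, with H2O2 in the upper and NCS in the lower row. CYFIP1 lay at or below 0.08 in both treatments while CYFIP2 reached 1.11 and 1.21, and TP53INP2 parted to -0.38 and 0.36 at 24 h while TP53INP1 rose in both.

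PHLDA1, a relative of PHLDA3, rose in H2O2 by 0.36, 0.56 and 0.85 at 4, 8 and 24 h (SE 0.05, limma, BH-adjusted p = 7.92e-06, 5.08e-08 and 6.17e-11). In NCS it differed by -0.15, -0.04 and 0.42, of which the first and last passed (BH-adjusted p = 0.0388, 0.707 and 1.08e-06). PHLDA2 rose by 0.29 at 4 h in each treatment (limma, BH-adjusted p = 0.0123 in H2O2 and 0.0301 in NCS) and was at -0.01 and 0.10 at 24 h (BH-adjusted p = 0.939 and 0.436). AKT1, which encodes a target kinase of PHLDA3, fell by 0.32 in H2O2 and by 0.36 in NCS at 24 h (SE 0.02, limma, BH-adjusted p = 6.67e-11 and 1.17e-11). This gene was named after its values were seen. ISG20, a nuclease related to AEN, was at a low level, with values of 3.48, 3.47 and 3.42 in untreated cells and 4.15, 4.25 and 4.31 in H2O2 at 4 h. It rose by 0.78 there (SE 0.05, limma, BH-adjusted p = 1.67e-10) and lay within 0.05 of untreated cells at each time in NCS. Among desmosome genes, DSP, which encodes desmoplakin, rose at 4 h by 0.83 in H2O2 and 0.46 in NCS (SE 0.03, limma, BH-adjusted p = 3.74e-14 and 4.80e-10). PKP1, which encodes plakophilin 1, rose by 0.43 and 0.66 (SE 0.06, BH-adjusted p = 2.20e-05 and 7.23e-07). The other 4 desmosome genes of the list, named after their values were seen, differed less at that time. In H2O2 the differences were -0.08 for DSG2 (BH-adjusted p = 0.0219), -0.07 for DSC3 (BH-adjusted p = 0.0524), 0.03 for DSC2 (BH-adjusted p = 0.102) and 0.10 for JUP (BH-adjusted p = 0.263), and in NCS none of the 4 passed. PERP differed by 0.04 and -0.02 at 4 h and passed at 24 h. Means in untreated cells, in H2O2 at 24 h and in NCS at 24 h follow in this order. They were 13.42, 13.40 and 13.67 for DSP and 5.98, 6.48 and 6.39 for PKP1. JUP had 6.48, 6.87 and 6.94, and DSG2 had 11.47, 11.58 and 11.57. DSC3 had 11.21, 11.22 and 11.22, and DSC2 had -0.24, -0.24 and -0.25.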

How the data were processed

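The log2 values deposited by the authors start from reads of a stranded mRNA library that were aligned with HISAT2 to hg19 and counted per gene with HTSeq, as the submitters' notes and the paper's methods say. The authors then transformed these counts with DESeq2's rLog over the 21 libraries. The versions and the strand setting of the counting are not given in the sources used here. The values give no counts, so no depth, interval or floor was calculated.

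The values were used as deposited. Of 23368 genes, 3674 were at 0 throughout and were dropped. A single limma model (version 3.58.1, R 4.3.3) covered the other 19694 and all 7 groups, with a trended prior variance, and p-values were adjusted across all genes after Benjamini and Hochberg (BH). A gene passed at an adjusted p-value under 0.05. The comparisons were 6 against untreated cells, 3 of H2O2 against NCS, 4 time steps and 2 interactions. The 6 comparisons with untreated cells share their control libraries. Exact permutation tests of 3 libraries against 3 cannot go below p = 0.1 and were not used.

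The 10 genes, the lists of other p53 targets and of relatives, and the tests were chosen with earlier results of these data known. Named beyond the 10 are the 2 genes most alike to each by Pearson correlation, the 3 other p53 targets with the largest difference between treatments at 4 h, relatives past a log2 difference of 0.58, and closest relatives. A gene that this rule named is not reported here. The authors named biological replicates. Each p-value rests on 1 moderated spread between replicates per gene, shared by all 7 groups, and not on that of the compared groups alone. For PHLDA3 the standard deviation was 0.226 in H2O2 at 8 h and 0.007 at 24 h, while the SE was 0.07 for both against untreated cells. Overlaps came from GENCODE v29 (GRCh38), and other calculations used Python 3.11.15, numpy 2.4.6, pandas 2.3.3 and matplotlib 3.10.9. Alternatives were median alignment, quantile normalization, genes with means of 5 or more, log2 limits of 1 and 0.58, a model of the compared groups alone, no trend, the replicate number as a block, each library left out in turn, and other measures of likeness.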

Additional observations from a re-analysis of the deposited data

Results flagged for a closer look

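The difference between H2O2 and NCS changed with time for several of the 10 genes, by an interaction test in limma. From 4 h to 8 h the change was 0.95 for ZMAT3 (SE 0.08, BH-adjusted p = 7.69e-08), 0.85 for PHLDA3 (SE 0.10, BH-adjusted p = 3.56e-06), 0.83 for TP53INP1 (SE 0.07, BH-adjusted p = 1.18e-07), 0.60 for KIAA0247 (SE 0.07, BH-adjusted p = 1.93e-06) and -0.27 for SPATA18 (SE 0.09, BH-adjusted p = 0.0247). From 4 h to 24 h it was 0.96 for PHLDA3, 0.83 for ZMAT3, 0.73 for TP53INP1, 0.31 for KIAA0247, 0.24 for EDA2R and 0.19 for AEN, with BH-adjusted p-values from 2.33e-07 to 0.00285. The SPATA18 change from 4 h to 8 h was lost without replicate 2 of H2O2 at 8 h (-0.19, limma, BH-adjusted p = 0.0645). It was also lost in a model of the compared groups alone (BH-adjusted p = 0.0826).

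Several genes moved in opposite directions in the treatments. ZMAT3 fell in H2O2 and rose in NCS at 4 h, with H2O2 minus NCS at -0.82 (limma, BH-adjusted p = 1.50e-09). For PHLDA1 at 4 h all libraries of H2O2 were higher and all of NCS lower than untreated cells, a difference between treatments of 0.51 (BH-adjusted p = 1.09e-07). For WASF2, a WAVE complex subunit, this held at 8 h (0.24, BH-adjusted p = 4.69e-06). The reverse, lower in H2O2 and higher in NCS, held for TP53INP2 at 8 h (-0.48, BH-adjusted p = 5.78e-11) and at 24 h (-0.74, BH-adjusted p = 1.95e-13) and for CYFIP1 at 24 h (-0.20, BH-adjusted p = 5.00e-07). WASF2 was named because of these values.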

How the results depend on the processing

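The limit on the log2 difference changed the counts of genes most, by its construction. Over 1, the counts against untreated cells were 0, 2 and 2 at 4, 8 and 24 h in H2O2 and 2, 1 and 3 in NCS, and 0 in every other comparison. Over 0.58 they were 3, 7 and 6 at 4, 8 and 24 h in H2O2 and 4, 6 and 6 in NCS. Shares of all genes past 0.58 were not calculated. H2O2 against NCS gave 2, 0 and 0, the H2O2 steps 2 and 0 and both NCS steps 0. The change of the treatment difference gave 4 from 4 h to 8 h and 3 from 4 h to 24 h. In a fit of only the groups compared, H2O2 against NCS at 8 h had 4 genes in place of 7, and fewer libraries entered that fit. AEN, PERP and CYFIP2 no longer passed there. With 1 library left out, counts ranged from 5 to 8 for H2O2 against NCS at 8 h, from 3 to 4 at 24 h (5 with all libraries), from 4 to 5 for the step from 8 h to 24 h in NCS (7 with all), and from 8 to 9 for H2O2 at 4 h. Of the 20 most alike genes, 5 were named again by Spearman correlation and 9 over group means.

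Same-numbered libraries had correlations of their deviations between -0.113 and 0.213, and in no comparison were all 3 over 0.1. With 3 libraries per group these values cannot show whether the numbers mark shared days or batches, and the labels do not say. With the replicate number as a block, 3 differences of the 10 genes no longer passed: PERP in H2O2 minus NCS at 8 h (adjusted p = 0.05), EDA2R from 8 h to 24 h in NCS (0.0584) and SPATA18 from 4 h to 8 h in H2O2 (0.0614).

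Differences that changed sign had not passed in the fit of all libraries. With medians aligned they were ZMAT3 in H2O2 minus NCS at 24 h (-0.013) and from 4 h to 8 h in NCS (-0.0027), and EDA2R at 24 h (-0.0074) and in the change from 4 h to 8 h (0.00020). With quantile normalization they were AEN in H2O2 minus NCS at 4 h (-0.015) and from 4 h to 8 h in NCS (0.021), ZMAT3 from 8 h to 24 h in H2O2 (0.036), PERP in NCS at 4 h (0.0029) and in the change from 4 h to 8 h (-0.029), and EDA2R and TRIAP1 from 4 h to 8 h in H2O2 (-0.029 and -0.0051). With 1 library left out, H2O2 minus NCS ranged from -0.0024 to 0.020 for AEN at 4 h, from -0.0033 to 0.034 for EDA2R at 24 h, from -0.015 to 0.038 for ZMAT3 at 24 h, and for TRIAP1 from -0.087 to 0.024 at 4 h and from -0.053 to 0.099 at 8 h. Steps from 4 h to 8 h ranged from -0.022 to 0.022 for AEN in NCS, from -0.019 to 0.059 for ZMAT3 in NCS, from -0.015 to 0.052 for EDA2R in H2O2 and from -0.047 to 0.105 for TRIAP1 in H2O2. Steps from 8 h to 24 h ranged from -0.0081 to 0.042 for KIAA0247 in NCS, from -0.12 to 0.032 for TRIAP1 in H2O2 and from -0.079 to 0.038 for ZMAT3 in H2O2. PERP in H2O2 at 8 h ranged from -0.0014 to 0.033. The change from 4 h to 8 h ranged from -0.047 to 0.021 for EDA2R, from -0.0091 to 0.027 for PERP and from -0.0057 to 0.146 for TRIAP1. The causes were not tested. With 1 library left out, 941 differences kept their direction and side of the threshold, 46 no longer passed and 7 newly passed.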
